A study of Mus musculus with 35 samples.

Results

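The genes described here are 34 genes whose proteins build, anchor or maintain the sarcomere, the contractile unit of heart and skeletal muscle. They were picked by symbol from a list of sarcomere and Z-disc genes, with no measured value in the rule, and all 34 were among the 55487 genes of each of the 4 deposited tables. RNA-Seq libraries were available from 8 mouse hearts and from 27 cultures of adult mouse cardiac fibroblasts (CFs), the matrix-forming cells of the heart. Hearts came from 8-week-old C57BL/6 mice, 4 heterozygous controls (HET) and 4 with a CRISPR-Cas9 frameshift in 4930523C07Rik (IAMP-KO), the gene that encodes the micropeptide IAMP. Every control heart therefore also carried 1 altered allele, and the frameshift leaves the transcript in place.

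CFs were primary cells freed by enzymatic digestion and, per the labels, kept for their adherence to the dish. The study's methods describe instead cells left after cardiomyocytes had settled out, spun down and then passaged. Each received a control siRNA (Scrambled) or 1 of 2 siRNAs against the IAMP transcript (IAMP-siR-1 and IAMP-siR-2), and was left untreated or given IL-17 or TGF-β, with 3 libraries for each of the 9 combinations. For the IL-17 cells the labels give 24 h of siRNA and then 24 h of IL-17. For the other cells the labels hold no times, and nothing says that CF replicates came from separate isolations, so the p values measure the spread between these samples, which may be technical. The strain is stated for the hearts. Untreated, IL-17 and TGF-β CFs are in separate tables, so stimulus and experiment cannot be told apart.

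In a sarcomere, myosin thick filaments slide along actin thin filaments when calcium binds troponin. Thin filaments are anchored at the Z-disc by α-actinin and its partners, thick filaments are cross-linked at the M-band, and titin spans from one to the other. These genes are textbook products of cardiomyocytes, and fibroblasts are not striated, although several Z-disc partners are also found on the actin stress fibres and focal adhesions of other cells. Chaperones such as the small heat shock proteins and ubiquitin ligases maintain and turn over the assembled filaments.

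Tnnt2, Ldb3 and Smyd1 fell with both siRNAs in untreated and in IL-17 CFs, and Hspb7 moved in opposite directions with them, so the sequence upstream of a RefSeq start of each of these 4 genes is shown. RefSeq promoters (build GRCm38.p6) were found for 29 members, and the 250 bases before the start farthest upstream were searched on both strands for 5 motifs. M-CAT, bound by TEAD factors, was searched as the letters CATTCC. The site of GATA factors was searched as the letters AGATAA. The E-box of basic helix-loop-helix factors was searched as CANNTG, the CArG box of SRF and the site of MEF2 by their usual consensus. Matches to different motifs may overlap. Capitals mark M-CAT and CArG box matches.
Tnnt2 (chr1:135836084-135836333, + strand): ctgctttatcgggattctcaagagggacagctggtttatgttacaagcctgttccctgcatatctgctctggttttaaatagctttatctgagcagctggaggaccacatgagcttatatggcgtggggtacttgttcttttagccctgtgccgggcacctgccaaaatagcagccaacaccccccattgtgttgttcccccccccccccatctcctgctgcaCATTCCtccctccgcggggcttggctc
Ldb3 (chr14:34588682-34588931, - strand): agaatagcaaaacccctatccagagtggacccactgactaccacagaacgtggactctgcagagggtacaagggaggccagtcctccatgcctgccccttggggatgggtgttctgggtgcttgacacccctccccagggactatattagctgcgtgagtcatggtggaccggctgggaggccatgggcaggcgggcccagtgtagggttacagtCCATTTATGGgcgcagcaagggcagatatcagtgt
Smyd1 (chr6:71262282-71262531, - strand): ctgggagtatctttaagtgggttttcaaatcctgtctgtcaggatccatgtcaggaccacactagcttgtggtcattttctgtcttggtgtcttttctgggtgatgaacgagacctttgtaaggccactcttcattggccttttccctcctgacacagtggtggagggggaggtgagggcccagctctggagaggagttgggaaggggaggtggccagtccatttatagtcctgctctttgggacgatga
Hspb7 (chr4:141420529-141420778, + strand): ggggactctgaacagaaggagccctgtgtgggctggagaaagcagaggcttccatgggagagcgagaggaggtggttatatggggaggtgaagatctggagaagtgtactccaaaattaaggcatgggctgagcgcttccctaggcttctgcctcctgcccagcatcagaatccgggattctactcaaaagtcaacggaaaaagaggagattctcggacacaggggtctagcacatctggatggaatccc

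The Tnnt2 window held an M-CAT match whose first base lies at position -27 from the start, together with a GATA match at -166 and 4 E-boxes. The Ldb3 window held a CArG box at -35 and no match to the other motifs. The Smyd1 window lies inside the gene as GENCODE annotates it, since the RefSeq start differs from the GENCODE start at 71322233. It held none of these letters, and that of Hspb7 held a single E-box at -17. An M-CAT match was present in 12.6% of all 32851 promoter windows and in 8 of the 29 member windows, which were those of Acta1, Ankrd1, Myh6, Myh7, Myl3, Tnnc1, Tnnt2 and Trim63. A CArG box was present in 1.47% of all windows and in 6 of the 29, those of Acta1, Actc1, Fhl2, Ldb3, Myl3 and Myom1. A MEF2 site was present in 2.92% of all windows and in 6 of the 29, a GATA match in 9.99% and 6, and an E-box in 66.2% and 26. The shares over all windows count every start of a gene, whereas each member has 1 window, so the 2 are not chosen alike. A match to these letters is a description of the window and not a bound site.

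The heart libraries held 23497027 to 23857313 counts and the CF libraries 104139670 to 119232309 estimated counts, in which 1 read pair is worth about 6. Levels are given as CPM, the counts of a gene scaled to a common library total with edgeR's TMM factors, separately in hearts and in CFs, and ± is the SD over 4 hearts or 3 CF libraries. Transcripts of 4930523C07Rik averaged 17 ± 1.25 CPM in HET and 16 ± 0.976 CPM in IAMP-KO hearts. In CFs they averaged 23.5 ± 1.98 CPM in untreated Scrambled cells, and were lower with IAMP-siR-1 and IAMP-siR-2 in every setting, by log2 fold changes from -2.23 to -3.69. The 8 fibroblast markers summed to 11667 to 11979 CPM in untreated Scrambled CFs, 17143 to 18008 CPM with IAMP-siR-1 and 16493 to 16722 CPM with IAMP-siR-2. Of 10 cardiomyocyte genes outside the sarcomere, Mb, Ckm and Ckmt2 were at or under 0.0556 CPM on average in every CF group, and Atp2a2, a calcium pump of many cell types, made up nearly all of that list's sum.

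In hearts, the members took 7.18 to 7.63% of all counts in HET and 6.84 to 7.24% in IAMP-KO libraries. The level of 33 of the 34 was at least 5 CPM in every heart. The exception was Tnni1, the slow skeletal troponin I of the fetal heart, with 0, 0, 0.381 and 0.64 CPM in the 4 HET hearts. Per kilobase of the coding transcript, the scale on which genes can be set side by side, the highest HET levels were Myl2, the regulatory myosin light chain of the ventricle (7037 CPM per kb), Actc1, cardiac α-actin (6192), and Tnnt2, the troponin subunit that binds tropomyosin (5156). The giant titin, Ttn, was at 26.6 CPM per kb and at 2845 CPM before division by its length. The length used is that of 1 transcript per gene, the one with the longest coding part. All exons together span more, 1950 bases against 729 for Myl2 and 7752 against 1200 for Tnnt2. For Actc1 they span 1618 against 1473. The order of genes per kilobase depends on this choice.

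Levels of the thick filament genes lay close together in the 2 genotypes. Myh6, the fast α-myosin heavy chain of the adult mouse heart, was measured at 17772, 16757, 16244 and 16258 CPM in HET and 15214, 15886, 16354 and 16437 CPM in IAMP-KO hearts. Myh7, its slower β partner, was at 4185, 3909, 3914 and 3799 CPM in HET and 3734, 3712, 4037 and 3953 CPM in IAMP-KO hearts. The 2 groups overlapped for both. Myh7 made up 19.1 ± 0.23% of Myh6 and Myh7 CPM in HET and 19.5 ± 0.39% in IAMP-KO hearts. These paralogs are nearly identical over long stretches, and how reads were split between them is not stated, so this percentage is uncertain. Acta1, skeletal α-actin, made up 6.27 ± 1.01% of Acta1 and Actc1 CPM in HET and 5.98 ± 1.67% in IAMP-KO hearts, with the same limit.

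None of the 34 members was called between IAMP-KO and HET hearts (Benjamini-Hochberg adjusted p no higher than 0.05 together with a log2 fold change of 1 or more in size, edgeR's quasi-likelihood test), where 0% of 16675 tested genes were called. At an unadjusted p under 0.05 the count was 0 of 34, against 3.6% of all genes, and DESeq2 also called 0. The log2 fold changes of 33 members lay within 0.2 of 0, and that of Tnni1, at its handful of counts, was 0.73. Counting by sign, 22 members lay below 0 and 12 above, around a median of -0.02, beside -0.0011 over all genes. A missed threshold does not show equal levels, and the median standard error over the members was 0.06.

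The 5 members with the smallest p values are given heart by heart. Tnnc1, the calcium-binding troponin C, was at 1422, 1194, 1275 and 1149 CPM in HET and 1134, 1221, 1043 and 1141 CPM in IAMP-KO hearts, a log2 fold change of -0.15 (standard error 0.07, edgeR adjusted p = 1). Fhl2, a LIM protein that binds titin at the I-band, was at 1000, 991, 1029 and 948 CPM in HET and 956, 915, 895 and 976 CPM in IAMP-KO hearts. Both were lower on average in IAMP-KO hearts, with ranges that overlapped. Myl3, the essential light chain, was at 3938, 3976, 4029 and 3588 CPM in HET and 3750, 3613, 3512 and 3814 CPM in IAMP-KO hearts. Mybpc3, cardiac myosin-binding protein C, was at 2878, 2588, 2417 and 2698 CPM in HET and 2465, 2509, 2314 and 2622 CPM in IAMP-KO hearts. Synpo2l, an actin-associated protein of the Z-disc, was at 130.1, 168, 161 and 171 CPM in HET and 132, 131, 138 and 166 CPM in IAMP-KO hearts. The groups overlapped for each of these 3, with log2 fold changes of -0.08, -0.09 and -0.15. Of the 3 members with the most counts, Actc1 was at 8828, 9343, 9382 and 8930 CPM in HET and 8612, 9122, 7576 and 9854 CPM in IAMP-KO hearts, and Tnnt2 at 6586, 5737, 6312 and 6112 and 6444, 6306, 6135 and 5954 CPM, beside Myh6 above.

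The members differed in how much they varied between hearts of one genotype. The SD was 1.94 to 28.1% of the mean in HET and 1.01 to 36.3% in IAMP-KO hearts, Tnni1 left out. The widest were Acta1 in IAMP-KO hearts (521, 775, 303 and 687 CPM), Xirp1, a Z-disc and intercalated disc actin binder, in IAMP-KO (295, 331, 246 and 475 CPM) and HET hearts (240.3, 356, 357 and 488 CPM), and Ankrd1, a stretch-responsive ankyrin repeat protein, in IAMP-KO hearts (364, 322, 269 and 459.7 CPM). One IAMP-KO heart was the lowest of its group for all 3 genes, and without it no member was called either.

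**Figure D1:**
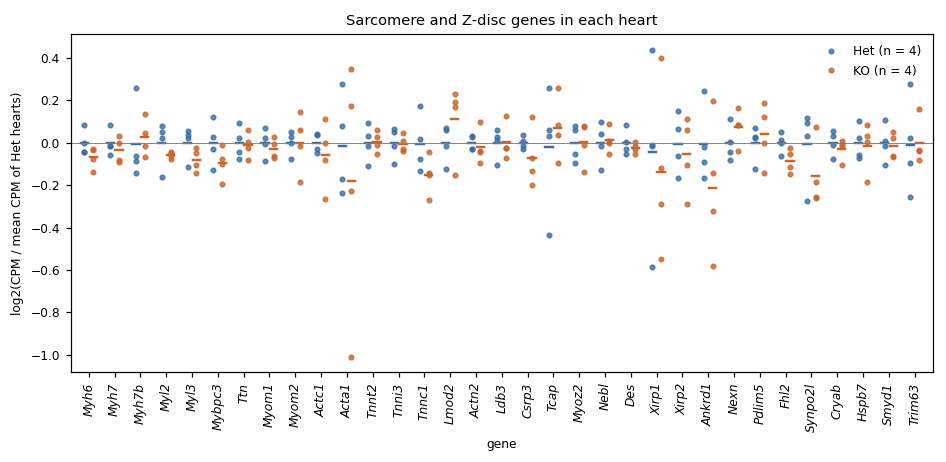
Level of 33 members in each heart relative to the HET mean (log2, y axis), with points for single hearts and bars for the mean of the log2 values of 4 hearts. Acta1, Xirp1 and Ankrd1 spread most. Tnni1, at 0 in some hearts, is left out.

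In CFs the members took 0.132 to 0.247% of the counts, and 17 of the 34 reached 1 CPM in every library of at least 1 of the 9 groups. In all 9 groups this held for 8 of them, which were Tnnt2, Des, Ankrd1, Nexn, Pdlim5, Fhl2, Cryab and Hspb7. By role, 2 of 9 thick filament and M-band genes reached 1 CPM in some group (Myom1 and Myom2), as did 3 of 7 thin filament genes (Tnnt2, Acta1 and Tnnc1), 8 of 14 Z-disc genes and all 4 chaperone and turnover genes. The count was 19 with a minimum of 0.5 CPM and 8 with 5 CPM. At the other end, Myh6, Myh7, Myl3, Tcap and Lmod2 were at or under 18 estimated counts, worth 3 read pairs, in every CF library, and 12 more lay between. The myosin heavy chains among the members (Myh6, Myh7 and Myh7b), both ventricular light chains, α-actinin 2 and cardiac actin were thus at or near 0. In these cells Tnnt2 was at up to 93.4 CPM on average.

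Per kilobase, the order of the most abundant members in untreated Scrambled CFs was Ankrd1 (559 CPM per kb), Pdlim5, which links α-actinin to kinases (329.7), Cryab, the small heat shock protein αB-crystallin (175), Fhl2 (121), Tnnt2 (77.9), Nexn, an actin-binding Z-disc protein (33.1), and Hspb7, a cardiac small heat shock protein (16.4). Each was above the next in every library on the CPM per kb scale. The next was Ldb3, also known as ZASP or Cypher, a PDZ-LIM protein that binds α-actinin (1.26). This order depends on the transcript length used, 1845 bases for Pdlim5 and 1200 for Tnnt2, whose exons together span 8877 and 7752. By full exon length it would differ. Ankrd1 was at 1131, 1103 and 1150 CPM in these cells and at 378, 396, 357 and 476 CPM in HET hearts, and Pdlim5 at 622, 624 and 579.6 and 468, 517, 519 and 535 CPM, although hearts and CFs were scaled separately and were not tested against each other. Hspb7, at 46.9, 44.2 and 45.5 CPM in these CFs, was at 2943, 3280, 2906 and 3111 CPM in HET hearts. Exons of Cryab overlap those of Hspb2, exons of Myom1 overlap Myl12a, exons of Tnni3 share 86 bases on the same strand with Dnaaf3, and exons of Des, Xirp2 and Nexn overlap noncoding or unclassified genes. The strand setting of the counting is not stated, so reads of these partners cannot be told apart. In the annotation used, Tnnt2, Ldb3, Smyd1, Fhl2 and Hspb7 share no exon with another gene.

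**Figure D2:**
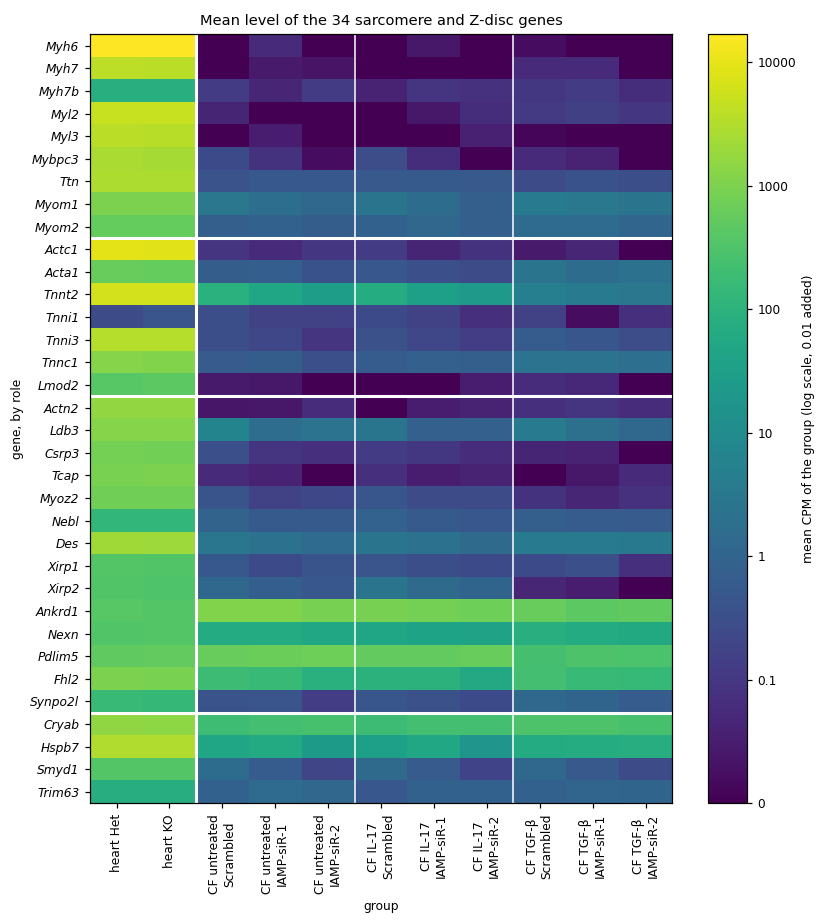
Mean CPM of the 34 members (rows, grouped by role between white lines, from thick filament at the top to chaperones at the bottom) in the 2 heart and 9 CF groups (columns), on a log colour scale with 0.01 added. Nearly all rows are bright in hearts, whereas in CFs the brightest are Ankrd1, Pdlim5, Cryab and Fhl2, and Tnnt2 darkens under TGF-β.

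The siRNA comparisons ask whether lowering the IAMP transcript changed these genes in CFs. In untreated CFs, 26 members had enough counts to be tested. With IAMP-siR-1, 4 of 26 were called lower and 0 higher (Tnnt2, Ldb3, Myoz2 and Smyd1), where 2.61% of 19669 genes were called lower. With IAMP-siR-2, 10 of 26 were called lower and 0 higher, against 7.23% of genes. These were Mybpc3 and Myom1 among 5 tested thick filament and M-band genes, Tnnt2 and Tnni3 among 5 thin filament genes, Ldb3, Csrp3, Xirp2, Fhl2 and Synpo2l among 12 Z-disc genes, and Smyd1 among 4 chaperone and turnover genes. Of the 10, Mybpc3, Tnni3, Csrp3 and Synpo2l were under 1 CPM on average in both groups. A share of all genes called higher is given only for IAMP-siR-1 in IL-17 CFs and for TGF-β in Scrambled CFs. The counts of 0 higher, here and below, therefore have no background beside them and are not read as a result about the members. By adjusted p alone, 7 members were lower and 4 higher with IAMP-siR-1, beside 39.9% of genes in either direction, and 16 were lower and 2 higher with IAMP-siR-2, beside 49.3%. The median log2 fold change over the tested members was -0.46 and -0.91, beside -0.02 and -0.02 over all genes. The summed smooth muscle and pericyte markers also lay below Scrambled with IAMP-siR-2 and not with IAMP-siR-1 (862 to 903 and 1756 to 1873 CPM against 1566 to 1653 CPM), and their part in these counts was not tested. The count with IAMP-siR-2 was 6 when estimated counts were divided by 6, where fewer low members could be tested, and that with IAMP-siR-1 was 2 without IAMP-siR-1 replicate 1 or Scrambled replicate 2.

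In IL-17 CFs, where the fold threshold was the study's 0.585 on the log2 scale, 5 of 27 tested members were called lower with IAMP-siR-1 (Tnnt2, Myom1, Ldb3, Xirp2 and Smyd1), against 7.97% of 19906 genes. Hspb7 alone, 1 of 27, was called higher, against 5.58% of genes. With IAMP-siR-2, 10 of 27 were called lower and 0 higher (Tnnt2, Mybpc3, Myom1, Ldb3, Nebl, Des, Xirp2, Smyd1, Fhl2 and Hspb7), against 13.7%. Without the fold threshold, 5 were lower and 2 higher with IAMP-siR-1, beside 42.3% of genes, and 12 were lower and 2 higher with IAMP-siR-2, beside 50.6%. In TGF-β CFs, with the same fold threshold, 3 of 23 members were called lower with IAMP-siR-1 (Acta1, Ldb3 and Smyd1), against 1.91% of 19891 genes. With IAMP-siR-2 the count was 5 of 23 (Tnnt2, Ldb3, Smyd1, Fhl2 and Synpo2l), against 5.44%, and none was called higher with either. On adjusted p only, 7 were lower and 2 higher with IAMP-siR-1, beside 23.1%, and 9 were lower and 2 higher with IAMP-siR-2, beside 29.9%. The 2 siRNA comparisons of each setting share their Scrambled libraries.

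**Figure D3:**
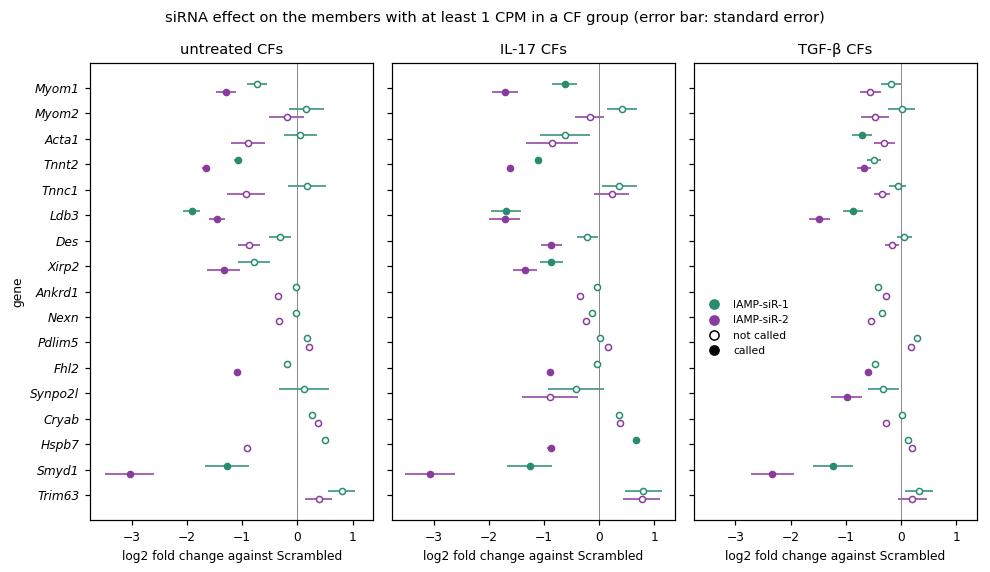
Log2 fold change against Scrambled (x axis) with IAMP-siR-1 and IAMP-siR-2 for the 17 members that reached 1 CPM in a CF group (rows), in untreated, IL-17 and TGF-β CFs. Error bars are standard errors and filled points are called. Tnnt2, Ldb3 and Smyd1 lie left of 0 in every panel, and Hspb7 lies on opposite sides of 0 with the 2 siRNAs in untreated and IL-17 CFs. Points of untested members, or with a group at or under the floor of 18 estimated counts, are not shown. Among these are Xirp2 under TGF-β and Synpo2l with IAMP-siR-2 in untreated CFs.

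Tnnt2 (ENSMUSG00000026414, chr1:135836354-135852260, + strand of GRCm38), the cardiac troponin T gene, was the highest by CPM of the thick filament, M-band and thin filament members in untreated Scrambled CFs. It was at 93.9, 89.1 and 97.3 CPM in untreated Scrambled CFs, 46, 46.1 and 41.1 CPM with IAMP-siR-1 and 32, 27 and 31 CPM with IAMP-siR-2. Every knockdown library was below every Scrambled library, and the log2 fold changes were -1.08 (standard error 0.06, adjusted p = 1.69e-09) and -1.66 (standard error 0.07, adjusted p = 4.61e-12). In IL-17 CFs it was at 69.3, 75.9 and 70.2 CPM with Scrambled, 35, 34.2 and 31.3 CPM with IAMP-siR-1 and 22.4, 25.2 and 23.3 CPM with IAMP-siR-2. The order of the 3 groups was the same as in untreated cells, again without overlap, with log2 fold changes of -1.11 and -1.62 (adjusted p = 3.63e-11 and 1.36e-13). In TGF-β CFs, where the gene was low, it was at 4.92, 4.47 and 4.88 CPM with Scrambled, 3.18, 3.02 and 3.99 CPM with IAMP-siR-1 and 3.1, 3.0 and 2.84 CPM with IAMP-siR-2. Only IAMP-siR-2 passed the fold threshold there, with a log2 fold change of -0.67 (standard error 0.13, adjusted p = 7.35e-04), and the value with IAMP-siR-1 was -0.48 (standard error 0.13, adjusted p = 0.0114).

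Ldb3 (ENSMUSG00000021798, chr14:34526603-34588682, - strand) was called lower with both siRNAs in all 3 settings. It was at 6.92, 6.41 and 6.04 CPM in untreated Scrambled CFs, 1.36, 2.07 and 1.72 CPM with IAMP-siR-1 and 2.33, 2.51 and 2.32 CPM with IAMP-siR-2, changes of -1.92 (standard error 0.15, adjusted p = 2.57e-08) and -1.46 (standard error 0.15, adjusted p = 2.81e-07). In untreated cells the IAMP-siR-1 libraries were the lowest and no group overlapped another. In IL-17 CFs it was at 2.98, 2.27 and 2.62 CPM with Scrambled, 0.483, 1.16 and 0.814 CPM with IAMP-siR-1 and 0.667, 1.07 and 0.702 CPM with IAMP-siR-2. Both siRNA groups lay below the Scrambled libraries and overlapped each other, with log2 fold changes of -1.69 and -1.71 (adjusted p = 9.17e-05 and 5.32e-05). In TGF-β CFs it was at 2.88, 3.72 and 4.08 CPM with Scrambled, 2.14, 1.59 and 2.12 CPM with IAMP-siR-1 and 1.23, 1.08 and 1.52 CPM with IAMP-siR-2, changes of -0.87 and -1.48 (adjusted p = 0.00241 and 1.30e-05).

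Smyd1 (ENSMUSG00000055027, chr6:71213940-71322233, - strand), a muscle methyltransferase that acts with chaperones in myosin assembly, was a low gene in CFs and was also called lower in all 6 comparisons. Untreated Scrambled libraries had 1.6, 1.73 and 1.3 CPM, IAMP-siR-1 libraries 0.609, 0.553 and 0.751 CPM and IAMP-siR-2 libraries 0.156, 0.362 and 0.0522 CPM. The groups did not overlap, and the changes were -1.28 (standard error 0.40, adjusted p = 0.0166) and -3.04 (standard error 0.44, adjusted p = 1.71e-05). With IL-17 the Scrambled libraries had 1.59, 1.25 and 1.48 CPM, IAMP-siR-1 libraries 0.538, 0.875 and 0.398 CPM and IAMP-siR-2 libraries 0.0526, 0.158 and 0.307 CPM. With TGF-β the Scrambled libraries had 1.19, 1.62 and 0.97 CPM, IAMP-siR-1 libraries 0.62, 0.266 and 0.716 CPM and IAMP-siR-2 libraries 0.199, 0.347 and 0.204 CPM. The IAMP-siR-2 values stood on few reads, 18, 41 and 6 estimated counts in the untreated libraries, and 2 of these were at or under the floor of 18. The IAMP-siR-1 calls were lost without any one of several libraries. In untreated cells these were IAMP-siR-1 replicate 1 or 2 and Scrambled replicate 1 or 2 (adjusted p = 0.0507 to 0.0748), with IL-17 IAMP-siR-1 replicate 1 or 3 and Scrambled replicate 1 or 3 (0.0527 to 0.098), and with TGF-β replicate 2 of either group (0.0873 and 0.115). The IAMP-siR-2 calls held in each of these refits.

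Fhl2 (ENSMUSG00000008136, chr1:43123074-43196984, - strand) was called with IAMP-siR-2 in each setting and with IAMP-siR-1 in none. In untreated CFs it was at 187, 183 and 199 CPM with Scrambled, 166, 170.2 and 167 CPM with IAMP-siR-1 and 89.9, 89.2 and 92.5 CPM with IAMP-siR-2, changes of -0.18 (standard error 0.04, adjusted p = 5.01e-04) and -1.09 (standard error 0.04, adjusted p = 2.54e-13). With IL-17 it was at 99.4, 104 and 103 CPM with Scrambled, 99.4, 103 and 97.6 CPM with IAMP-siR-1 and 56.3, 55.9 and 54.5 CPM with IAMP-siR-2. The IAMP-siR-1 and Scrambled libraries overlapped there, while IAMP-siR-2 libraries lay well below both (log2 fold change -0.90, standard error 0.03, adjusted p = 6.24e-13). With TGF-β it was at 236, 228 and 221 CPM with Scrambled, 166, 165 and 166 CPM with IAMP-siR-1 and 156, 150.0 and 149 CPM with IAMP-siR-2. Under TGF-β both siRNAs left Fhl2 below Scrambled, with log2 fold changes of -0.46 and -0.59, and the second passed the fold threshold narrowly. Without Scrambled replicate 1 or IAMP-siR-2 replicate 3 it was -0.57 and -0.58 and no longer passed.

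Hspb7 (ENSMUSG00000006221, chr4:141420779-141425311, + strand) was called higher with IAMP-siR-1 and lower with IAMP-siR-2 in IL-17 CFs, and lay on the same sides of Scrambled in untreated CFs. In untreated CFs it was at 46.9, 44.2 and 45.5 CPM with Scrambled, 66.7, 64.5 and 62.5 CPM with IAMP-siR-1 and 25.6, 23.6 and 24.3 CPM with IAMP-siR-2. The changes were 0.50 (standard error 0.05, adjusted p = 2.17e-07) and -0.91 (standard error 0.05, adjusted p = 6.71e-11), short of the fold threshold of 1 for untreated cells. With IL-17 it was at 33, 33.1 and 31.3 CPM with Scrambled, 53.7, 51.3 and 51.6 CPM with IAMP-siR-1 and 18.8, 16 and 19 CPM with IAMP-siR-2, changes of 0.67 (standard error 0.06, adjusted p = 9.17e-08) and -0.87 (standard error 0.06, adjusted p = 2.31e-09). No 2 of the 3 groups overlapped in either setting. With TGF-β it was at 66.8, 63.8 and 69.1 CPM with Scrambled, 73.2, 72 and 71.8 CPM with IAMP-siR-1 and 73.9, 77 and 78.2 CPM with IAMP-siR-2, and both changes were small and upwards (0.12 and 0.20).

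**Figure D4:**
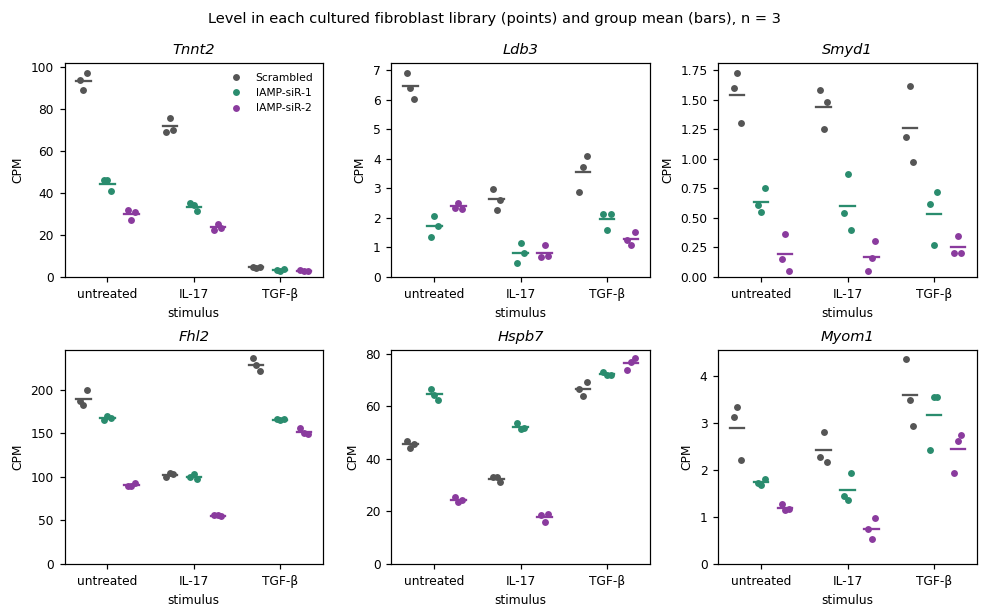
CPM (linear y axes from 0) of Tnnt2, Ldb3, Smyd1, Fhl2, Hspb7 and Myom1 in each of the 27 CF libraries, by stimulus (x axis) and siRNA (colour), with bars for the mean of 3 libraries. Scrambled libraries are the highest for Tnnt2, Ldb3 and Smyd1 in every setting, and Hspb7 lies above Scrambled with IAMP-siR-1 and below it with IAMP-siR-2 outside TGF-β.

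Among lower-level members, Myom1, the M-band protein myomesin 1, was at 3.13, 3.33 and 2.2 CPM in untreated Scrambled CFs, 1.72, 1.68 and 1.81 CPM with IAMP-siR-1 and 1.27, 1.15 and 1.16 CPM with IAMP-siR-2. The change with IAMP-siR-2 was -1.29 (standard error 0.18, adjusted p = 1.28e-05), and that with IAMP-siR-1 was -0.74 (standard error 0.18, adjusted p = 0.00307), under the fold threshold. With IL-17 it was at 2.27, 2.81 and 2.16, 1.45, 1.36 and 1.93 and 0.737, 0.526 and 0.983 CPM in the 3 libraries each of Scrambled, siR-1 and siR-2 in turn. IAMP-siR-2 lowered it (log2 fold change -1.71, standard error 0.24, adjusted p = 9.85e-06), and the call with IAMP-siR-1 (log2 fold change -0.62, standard error 0.23, adjusted p = 0.0381) was lost without IAMP-siR-1 replicate 1 or 2 or Scrambled replicate 1 or 2, with adjusted p between 0.0587 and 0.157. Xirp2, an actin-binding repeat protein of the Z-disc region, was at 1.11, 1.41 and 1.07 CPM in untreated Scrambled CFs and 0.346, 0.424 and 0.67 CPM with IAMP-siR-2, a fall that passed the test (log2 fold change -1.34, standard error 0.30, adjusted p = 0.00122). With IL-17 it was at 3.01, 2.21 and 2.38 CPM with Scrambled, 1.34, 1.08 and 1.78 CPM with IAMP-siR-1 and 1.06, 0.876 and 1.11 CPM with IAMP-siR-2, and both siRNA groups lay below Scrambled (-0.87 and -1.34). Des, the intermediate filament desmin, was at 2.39, 2.91 and 2.28 CPM with Scrambled and 1.2, 1.39 and 1.62 CPM with IAMP-siR-2 under IL-17, where it was called (log2 fold change -0.87, standard error 0.20, adjusted p = 0.00124). In untreated cells its change with IAMP-siR-2 was -0.87 (standard error 0.20, adjusted p = 0.00149), under the fold threshold.

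Several calls rested on a few read pairs and give bounds rather than folds. Of the low members, Mybpc3, Tnni3, Csrp3, Myoz2 and Nebl were named after their values were seen. In untreated CFs, Mybpc3 had 18, 46 and 26 estimated counts in Scrambled and 0, 0 and 2 in IAMP-siR-2 libraries, so that it was at least 1.57-fold lower against the floor of 18 per library. By the same floor, the fall was at least 1.9-fold for Tnni3, cardiac troponin I, whose exons overlap those of Dnaaf3, 2.04-fold for Csrp3, muscle LIM protein, and 2.49-fold for Synpo2l. The Csrp3 call was lost in 5 of 6 refits without 1 library and the Tnni3 call in 3 of 6. Myoz2, a calcineurin-binding Z-disc protein, had 34, 49 and 64 estimated counts in Scrambled and 18, 25 and 11 in IAMP-siR-1 libraries, and its call was lost in 4 of 6 such refits. With IL-17, Mybpc3 had 46, 42 and 18 estimated counts in Scrambled and 0 in all IAMP-siR-2 libraries, at least 1.86-fold lower. Nebl, nebulette, was at 1.19, 0.566 and 0.894 CPM in Scrambled and 0.631, 0.473 and 0.36 CPM in IAMP-siR-2 libraries, which overlapped, and its call (log2 fold change -0.87, standard error 0.34, adjusted p = 0.0418) was lost in 4 of 6 refits and with DESeq2. With TGF-β, Acta1 was at 2.88, 2.42 and 2.31 CPM in Scrambled and 1.7, 1.64 and 1.31 CPM in IAMP-siR-1 libraries (log2 fold change -0.71, standard error 0.19, adjusted p = 0.0098), a call lost without Scrambled replicate 1 or IAMP-siR-1 replicate 3 (adjusted p = 0.0589 and 0.0557). Synpo2l was at 1.25, 1.25 and 1.21 CPM in Scrambled and 0.37, 0.683 and 0.816 CPM in IAMP-siR-2 libraries (log2 fold change -0.98, standard error 0.29, adjusted p = 0.0141), a call lost without IAMP-siR-2 replicate 1 (adjusted p = 0.0666).

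Ankrd1, Nexn, Pdlim5 and Cryab, 4 of the abundant members, stayed under the fold threshold in every siRNA comparison, and not all of their changes were downwards. Ankrd1 was at 1128 ± 23.5 CPM in untreated Scrambled CFs, 1111 ± 25.9 CPM with IAMP-siR-1 and 901 ± 6.79 CPM with IAMP-siR-2, a change of -0.34 (standard error 0.03, adjusted p = 1.63e-08) with the second. Nexn was at 66.7 ± 2.41, 66 ± 2.78 and 53.9 ± 2.52 CPM in the same groups, with -0.33 for IAMP-siR-2. Pdlim5 was higher in untreated CFs with both siRNAs by adjusted p alone, 0.17 and 0.21, and so was Cryab, 0.26 and 0.38. Trim63, the ubiquitin ligase MuRF1, was at 0.943, 0.959 and 0.633 CPM with Scrambled and 1.29, 1.54 and 1.62 CPM with IAMP-siR-1 in untreated cells (log2 fold change 0.81, standard error 0.25, adjusted p = 0.0146). Myom2 had no adjusted p at or below 0.05 in any siRNA comparison.

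The 2 siRNAs were also compared directly. In untreated CFs, 4 of 26 members were called lower with IAMP-siR-2 than with IAMP-siR-1 and 0 higher (Tnnc1, Smyd1, Synpo2l and Hspb7), against 4.41% of genes. In IL-17 CFs the count was 6 of 27 (Mybpc3, Myom1, Des, Smyd1, Fhl2 and Hspb7), against 9.62%, and in TGF-β CFs 2 of 23 (Ldb3 and Smyd1), against 3.12%. By adjusted p alone the counts in either direction were 13, 9 and 6, beside 45.5%, 46.2% and 24% of genes. Hspb7 differed between the siRNAs with log2 fold changes of -1.41 (standard error 0.05, adjusted p = 6.01e-13) in untreated and -1.55 (standard error 0.06, adjusted p = 2.74e-12) in IL-17 CFs, and of 0.08 (standard error 0.04, adjusted p = 0.195) in TGF-β CFs. Tnnt2 was lower with IAMP-siR-2, with log2 fold changes of -0.58 (standard error 0.07, adjusted p = 1.70e-06) in untreated and -0.51 (standard error 0.05, adjusted p = 5.17e-07) in IL-17 CFs, under the fold thresholds. Ldb3 was higher with IAMP-siR-2 in untreated CFs (log2 fold change 0.46, standard error 0.15, adjusted p = 0.0186) and lower in TGF-β CFs (log2 fold change -0.61, standard error 0.19, adjusted p = 0.0285). Tnnc1 was at 0.892, 0.624 and 0.563 CPM with IAMP-siR-1 and 0.389, 0.388 and 0.20 CPM with IAMP-siR-2 in untreated CFs (log2 fold change -1.10, standard error 0.35, adjusted p = 0.0152), a call lost without IAMP-siR-1 replicate 1 or IAMP-siR-2 replicate 3 (adjusted p = 0.0861 and 0.0704). Mybpc3 in IL-17 CFs was at or under the floor in both siRNA groups, so no fold is given. Its call there was lost in 1 of 6 refits without 1 library, and the Des call in 2 of 6. Called members under 1 CPM on average in both groups were Tnnc1, Smyd1 and Synpo2l in untreated CFs. In IL-17 CFs they were Mybpc3 and Smyd1, and in TGF-β CFs Smyd1. The Smyd1 groups overlapped in TGF-β CFs. The 2 TGF-β calls were each lost when any of 4 single libraries was left out, and the count fell to 0 without IAMP-siR-2 replicate 1, IAMP-siR-1 replicate 1 or IAMP-siR-1 replicate 3.

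The stimulus comparisons ask what IL-17 or TGF-β did to these genes in Scrambled CFs. With IL-17, 1 of 29 tested members was called lower and 0 higher, against 0.353% of 22359 genes called lower. It was Ldb3, at 6.92, 6.41 and 6.04 CPM untreated and 2.98, 2.27 and 2.62 CPM with IL-17 (log2 fold change -1.30, standard error 0.22, adjusted p = 4.01e-05). Without the fold threshold, 8 members were lower and 0 higher, beside 12.2% of genes. Fhl2 was the nearest to the fold threshold, at 187, 183 and 199 CPM untreated and 99.4, 104 and 103 CPM with IL-17 (log2 fold change -0.89, standard error 0.03, adjusted p = 5.69e-20). Nexn, Hspb7, Tnnt2 and Ankrd1 changed by -0.57, -0.49, -0.38 and -0.37, each with no overlap between the groups.

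With TGF-β, 5 of 29 members were called lower, against 9.14% of genes, and 3 higher, against 11.7%. Tnnt2 fell the furthest among the members above 1 CPM in both groups, from 93.9, 89.1 and 97.3 CPM to 4.92, 4.47 and 4.88 CPM (log2 fold change -4.30, standard error 0.08, adjusted p = 3.24e-28). Pdlim5 fell from 622, 624 and 579.6 CPM to 229, 263 and 251 CPM (log2 fold change -1.30, standard error 0.04, adjusted p = 3.99e-24). Xirp2 was at 1.11, 1.41 and 1.07 CPM untreated and had 0, 6 and 6 estimated counts with TGF-β, at least 7.3-fold lower against the floor of 18 per library. For Csrp3 and Myoz2 the bounds were 1.95-fold and 2.44-fold, on at most 64 estimated counts a library. The Csrp3 call was lost when any one of the 6 libraries was left out, and the Myoz2 call without TGF-β Scrambled replicate 1 (adjusted p = 0.0589). The 3 called higher belong to the thin filament and Z-disc, and the summed smooth muscle and pericyte markers were higher as well (4243 to 4446 CPM), a part that was not tested. Acta1 went from 0.653, 0.734 and 0.649 CPM to 2.88, 2.42 and 2.31 CPM (log2 fold change 1.90, standard error 0.31, adjusted p = 2.84e-06), Tnnc1 from 0.571, 0.509 and 0.754 CPM to 2.21, 2.43 and 2.56 CPM (log2 fold change 1.97, standard error 0.28, adjusted p = 1.98e-07), and Synpo2l from 0.546, 0.284 and 0.345 CPM to 1.25, 1.25 and 1.21 CPM (log2 fold change 1.66, standard error 0.42, adjusted p = 0.00116). In each of the 3 every TGF-β library was above every untreated one. On adjusted p only, 9 members were higher and 7 lower, beside 55.5% of genes in either direction. These included Cryab (0.67), Hspb7 (0.55) and Fhl2 (0.27) upwards and Ankrd1 (-0.92) downwards.

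**Figure D5:**
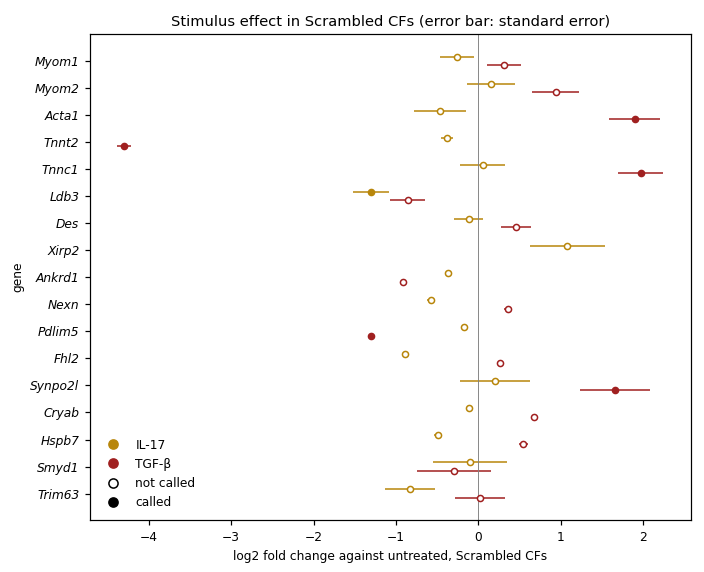
Log2 fold change of IL-17 and TGF-β against untreated in Scrambled CFs (x axis) for the members that reached 1 CPM in a CF group (rows), with standard errors and filled points for called members. Tnnt2 with TGF-β, at -4.30, stands far left of all others. Xirp2 with TGF-β, at the floor, is not shown.

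Whether an siRNA effect differed between a stimulus and untreated cells was tested as an interaction over all 27 CF libraries. With IL-17, 0 of 29 members were called for IAMP-siR-1 and 0 for IAMP-siR-2, against 0.17% and 0.174% of genes, in edgeR and in DESeq2. By adjusted p alone the counts were 0 and 1, beside 1.73% and 1.64% of genes, and 4 and 3 members had an unadjusted p under 0.05, beside 11.1% and 9.41% of genes. With TGF-β, 1 member was called for each siRNA, against 2.31% and 4.95% of genes. For IAMP-siR-1 it was Ldb3, whose fall was smaller with TGF-β by 1.04 (standard error 0.31, adjusted p = 0.0137), a call lost without untreated IAMP-siR-1 replicate 1 (adjusted p = 0.0523), and under the fold threshold at 0.97, 0.98 and 0.92 without TGF-β IAMP-siR-1 replicate 1 or 3 or Scrambled replicate 1. For IAMP-siR-2 it was Hspb7, lower than Scrambled in untreated and not in TGF-β cells, a difference of 1.09 (standard error 0.07, adjusted p = 8.22e-14) that held in every refit. The Tnnt2 effect of IAMP-siR-2 was also smaller with TGF-β, by 0.96 (standard error 0.11, adjusted p = 3.15e-08), just under the fold threshold, and that of IAMP-siR-1 by 0.59 (standard error 0.11, adjusted p = 1.58e-04). Without the fold threshold, 7 members differed for IAMP-siR-1 and 6 for IAMP-siR-2, beside 19.5% and 29.5% of genes. Knockdown of 4930523C07Rik itself was weaker in the TGF-β table, by 0.73 (standard error 0.15, adjusted p = 5.41e-04) and 1.02 (standard error 0.16, adjusted p = 3.84e-06), and its part in these differences was not tested.

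Other genes of the sarcomere were taken from 3 lists that exclude the members. Of 32 filament genes, 19 were tested in untreated CFs, of which 1 was called lower with IAMP-siR-1 and 5 with IAMP-siR-2 and 0 higher, against 2.61% and 7.23% of all genes called lower. The 5 were Tpm2, β-tropomyosin (-1.07), Speg, a titin-like kinase (-1.17), Lmod1, a leiomodin of smooth muscle (-1.20), Mylk3, the cardiac myosin light chain kinase (-1.22), and Myh1, a skeletal myosin (-1.36). Tpm2 was also called lower with IAMP-siR-2 in IL-17 (-1.10) and TGF-β CFs (-1.17). Of 27 Z-disc and costamere symbols, 26 were found in the data, and 23 were tested in untreated CFs, with 1 called lower for each siRNA. These were Capza2, an actin-capping subunit, with IAMP-siR-1 (-1.63) and Pdlim3 with IAMP-siR-2 (-1.47). Capza2 was also called with IAMP-siR-1 in IL-17 (-1.57) and TGF-β CFs (-0.87), and was higher with IAMP-siR-2 under IL-17 (0.60). Of 14 chaperone and turnover genes, 11 were tested, and 0 and 2 were called lower. With TGF-β against untreated in Scrambled CFs, 6 of 23 filament, 6 of 25 Z-disc and 5 of 12 chaperone genes were called higher. The counts called lower were 2, 1 and 0, where 11.7% of all genes were called higher and 9.14% lower. Among the listed genes called higher, Myl7, Myh2, Myot and Tnnt3 averaged only 0.0704, 0.145, 0.0292 and 0.438 CPM over the CF libraries. Those that rose included Synpo2, an actin bundler (2.70), Csrp2, a LIM protein of smooth muscle (2.19), Tpm1, α-tropomyosin (1.02), Pdlim7 (1.18) and the small heat shock genes Hspb1 (1.37), Hspb6 (1.57) and Hspb8 (1.01), while Vcl, vinculin, fell (-2.49). In IL-17 CFs, 3 of 18 filament genes were called lower with IAMP-siR-1 and 4 with IAMP-siR-2, against 7.97% and 13.7% of all genes. In TGF-β CFs the counts were 0 and 5 of 22, against 1.91% and 5.44%. Beside the same shares, Z-disc genes called lower with IAMP-siR-1 were Capza2, Pdlim1 and Synpo under IL-17, and Capza2 and Csrp2 under TGF-β. With IAMP-siR-2 they were Csrp2, Myoz3, Pdlim3, Synpo and Synpo2 under IL-17, and the same without Myoz3 under TGF-β. Flnc was called higher with IAMP-siR-1 under IL-17. With IAMP-siR-2, Fbxo40 was called lower (-1.52) under IL-17 and Trim54 higher (1.94) under TGF-β. Myoz3 and Trim54 averaged 0.197 and 0.29 CPM in CFs. In hearts 0 of 23, 0 of 22 and 0 of 14 tested genes of the 3 lists were called.

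Markers of other cells that a CF culture could hold moved with some of these groups. The 7 smooth muscle and pericyte markers summed to 1566 to 1653 CPM in untreated Scrambled CFs, 1756 to 1873 CPM with IAMP-siR-1 and 862 to 903 CPM with IAMP-siR-2. Of the 7, 0 were called with IAMP-siR-1 and 3 were called lower with IAMP-siR-2 (Tagln, Cnn1 and Smtn), beside 2.61% and 7.23% of all genes called lower. Under IL-17 the sums were 1355 to 1388, 1509 to 1607 and 739 to 747 CPM, and under TGF-β 4243 to 4446, 2761 to 2911 and 2119 to 2263 CPM. Acta2, the smooth muscle actin that activated fibroblasts also make, and Tagln made up most of these sums, while Myh11 and Kcnj8 averaged at most 4.13 and 0.177 CPM in every CF group. Single markers of this list did not all follow its sum. Under IL-17, Smtn (-0.85) and Rgs5 (-0.67) were called lower with IAMP-siR-1. With IAMP-siR-2 under IL-17, Rgs5 was called higher (0.61), while Acta2, Tagln, Cnn1 and Smtn were called lower. With TGF-β against untreated, 4 of the 7 were called higher in Scrambled CFs, where 11.7% of all genes were called higher and 9.14% lower. The part of these genes in the members' changes was not tested. The 10 cardiomyocyte genes outside the sarcomere summed to 569 to 587, 747 to 754 and 679.7 to 708 CPM in untreated CFs with the control and the 2 IAMP siRNAs in turn, with 0 and 1 called lower. The 1, Pln, averaged 0.198 CPM in Scrambled cells. The same sums under IL-17 were 557 to 581, 665 to 696 and 651 to 672 CPM, and under TGF-β 307 to 332, 354 to 362 and 354 to 365 CPM. Casq2, calsequestrin 2, was called lower against Scrambled with IAMP-siR-2 under IL-17 (log2 fold change -1.64) and with IAMP-siR-1 and IAMP-siR-2 under TGF-β (-0.90 and -0.73), and higher with TGF-β itself in Scrambled CFs (1.46). Ryr2, the ryanodine receptor of heart muscle, was called lower in Scrambled CFs with IL-17 (log2 fold change -2.31) and with TGF-β (-1.60), and higher with IAMP-siR-1 under IL-17 (1.61). Atp2a2 alone averaged 566 CPM in untreated Scrambled CFs, and Casq2 0.473 CPM. Fibroblast markers summed higher with both siRNAs than with Scrambled in every setting, at 11464 to 11623 CPM with Scrambled, 16210 to 16933 CPM with IAMP-siR-1 and 16665 to 17364 CPM with IAMP-siR-2 under IL-17. Under TGF-β they were at 16577 to 17403, 18546 to 18920 and 19174 to 20301 CPM in the same order. Single fibroblast markers did not all follow these sums. With IAMP-siR-2 under IL-17, Col3a1 (log2 fold change 1.56) and Dcn (0.96) were called higher and Tcf21 lower (-0.62). With TGF-β in Scrambled CFs, Dcn was called higher (1.96) and Pdgfra (-1.46) and Ddr2 (-1.37) lower. The 5 macrophage markers summed to 17.6 to 19.8 CPM in untreated Scrambled CFs, 22.4 to 22.8 CPM with IAMP-siR-1, 29.4 to 30.9 CPM with IAMP-siR-2 and 37.4 to 44.6 CPM with TGF-β in Scrambled CFs. Under IL-17 their sums were 17.9 to 20.2, 23.9 to 24.5 and 29.2 to 32.4 CPM in the same siRNA order. The macrophage markers did not all follow their sum. Under IL-17, Csf1r was called higher with IAMP-siR-1 and IAMP-siR-2 (log2 fold changes 0.66 and 1.12), while C1qa was called lower (-0.60 and -0.75). The 5 endothelial markers summed to 46.8 to 52.6 CPM in untreated Scrambled CFs and 88.5 to 90 CPM with TGF-β. With TGF-β in Scrambled CFs, 2 of 5 markers were called higher and 1 lower in each of these 2 lists. The 7 skeletal muscle markers summed to 1.19 to 1.36 CPM in untreated Scrambled CFs, 0.618 to 0.726 CPM with IAMP-siR-2 and 5.06 to 6.78 CPM with TGF-β in Scrambled CFs. All 3 that could be tested were called higher with TGF-β, namely Myh1 (log2 fold change 2.84), Tnnt3 (1.72) and Acta1, itself a member, while Myod1 and Myog averaged at most 0.0153 CPM in every CF group. The part of these markers in the members' changes was not tested. In these bulk libraries, fewer cells of a type and less RNA per cell cannot be told apart.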

How the data were processed

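RNA-Seq was available for 8 hearts and 27 CF cultures. Per the study's methods, the authors trimmed reads with Cutadapt, aligned them with HISAT2 to GRCm38, quantified them with StringTie and tested them with DESeq2. Which strand was counted, which annotation was used and how whole numbers arose are not given in the sources used here. For hearts, the authors deposited whole-number counts per gene. For CFs, the deposited values are estimated counts, in which low values step by about 6. The tables were used as deposited, each with 55487 genes, of which 55227 have an identifier in GENCODE vM21.

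Here CPM, tests and calls were made with edgeR 4.0.16 (limma 3.58.1, R 4.3.3) by TMM factors, filterByExpr and the robust quasi-likelihood test, with Benjamini-Hochberg adjustment over all genes tested. Each siRNA comparison was fitted in its own table of 9 libraries. Stimulus and interaction comparisons were fitted over all 27 CF libraries. A gene was called at an adjusted p of 0.05 or less and a log2 fold change of 1 or more in size, or 0.585 for siRNA comparisons in IL-17 CFs, as the study used. The study gives no fold threshold for TGF-β CFs or hearts, and 0.585 and 1 were used. Standard errors were taken from the fold change and the root of its F statistic. The fits were tested on simulated data with known changes. Groups came from the sample labels, and hearts carry no replicate number that their columns could be matched to. Replicates of a group differed by more than sampling noise, with a chi-square per degree of freedom of 2.02 to 5.63 in CFs and 4.91 to 13.6 in hearts. Alternatives were DESeq2 1.42.0, other scaling, other filters, division of CF values by 6, fits of only the compared groups, a replicate block and leaving out each library.

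The members, gene lists and tests were chosen with earlier results of these data known. Members with values per library were, in hearts, the 5 with the smallest unadjusted p and the 3 with the highest level, and in CFs those called in some comparison with a group mean of at least 1 CPM. Other members named are examples chosen after their values were seen.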

Additional observations from a re-analysis of the deposited data

Results flagged for a closer look

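For 2 members the effect of an siRNA differed between TGF-β and untreated CFs by the interaction test over 27 libraries. This was 1 of 29 tested members for each siRNA, against 2.31% of genes for IAMP-siR-1 and 4.95% for IAMP-siR-2. The counts lie near these shares and are not read as a result about the members as a set. The effect of IAMP-siR-1 on Ldb3 was higher on the log2 scale, a smaller fall, by 1.04 in TGF-β CFs. The effect of IAMP-siR-2 on Hspb7 was higher by 1.09. When 1 library was left out, the Ldb3 call was lost in 4 of 12 refits and the Hspb7 call in 0 of 12. Knockdown of 4930523C07Rik was also weaker in the TGF-β table, and its part was not tested. The 3 stimulus settings come from separate tables, so stimulus and experiment cannot be told apart. Of 66 heart groups, covering 33 members in each genotype, 0 had a single heart far from the others by Dixon's test, where chance flags about 1 in 20.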

How the results depend on the processing

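The number of members called changed most with the thresholds and with how low counts were treated. By adjusted p alone it went from 4 to 11 with IAMP-siR-1, from 10 to 18 with IAMP-siR-2 and from 4 to 13 between the siRNAs in untreated CFs. In TGF-β CFs the same 3 counts went from 3 to 9, from 5 to 11 and from 2 to 6. For the stimuli in Scrambled CFs the counts by adjusted p alone were 8 with IL-17 and 16 with TGF-β, and for the interactions 1 with IAMP-siR-2 under IL-17, 7 with IAMP-siR-1 under TGF-β and 6 with IAMP-siR-2 under TGF-β. With at least 10 counts in every library, which drops low members from the test, the count was 5 for IAMP-siR-2 and 2 between the siRNAs in untreated CFs and 4 for TGF-β in Scrambled CFs. With CF values divided by 6 it was 6 for IAMP-siR-2 in untreated CFs, 1 between the siRNAs in TGF-β CFs and 2 for IL-17 in Scrambled CFs. For IL-17 in Scrambled CFs it was also 2 with DESeq2 and 2 in a fit of only the compared groups, and that fit gave 1 between the siRNAs in TGF-β CFs. Without a filter it was 2 for the IAMP-siR-2 interaction under TGF-β. The cause of these shifts was not tested beyond the genes each filter removes. At a minimum of 5 CPM, 8 members counted as expressed in CFs.

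Leaving out 1 library at a time gave 2 to 4 calls for IAMP-siR-1, 8 to 11 for IAMP-siR-2 and 4 to 6 between them in untreated CFs. The ranges were 4 to 6, 9 to 12 and 4 to 7 in IL-17 CFs and 2 to 3, 4 to 7 and 0 to 3 in TGF-β CFs. They were 1 to 2 for IL-17 and 7 to 8 for TGF-β in Scrambled CFs, 0 to 2 and 1 to 3 for the TGF-β interactions of IAMP-siR-1 and IAMP-siR-2, and 0 in hearts and in both IL-17 interactions. Over the calls of single members, 319 such refits kept the call and 59 lost it, and no direction reversed under any alternative run.

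Replicate numbers did not pair the CF libraries: the 27 correlations between same-numbered libraries ran from -0.19 to 0.11, 2 of them over 0.1, and 16 of 27 libraries lay closer to their own number on average. With the replicate number as a block, 57 member calls held and 4 were lost, and the count between the siRNAs in TGF-β CFs went from 2 to 1. No paired analysis was possible in hearts because their columns carry no replicate number.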
